A study of Danio rerio with 36 samples.

Results

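The genes described here encode the proteins of the sarcomere, the contractile unit of striated muscle. They were chosen by symbol, and the rule took troponins, tropomyosins, skeletal and cardiac actins, fast and slow myosin heavy chains, the fast regulatory light chain (mylpf), myosin-binding protein C, titin, nebulin, myomesin, myozenin, alpha-actinins 2 and 3 and ldb3. It found 60 genes among the 32520 in the files, and all 60 had counts in the series. By place in the sarcomere, 34 belong to the thin filament, 12 to the thick filament, 9 to the Z-disc, 3 to the M-line and 2 to titin. The rule also took tnni3k, which encodes a kinase named for binding troponin I, and nebl, which encodes nebulette, a nebulin-like protein. Both were counted with the thin filament genes by their symbols, although the kinase is not a part of that filament. A pair of neighbouring genes on chromosome 9 share the symbol TTN and are told apart by their identifiers, ENSDARG00000000563 and ENSDARG00000028213.

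RNA was sequenced from zebrafish homozygous for sgshΔex5-6, a deletion in sgsh (called sgsh below), and from wild-type fish. sgsh encodes N-sulfoglucosamine sulfohydrolase, the lysosomal enzyme of heparan sulfate breakdown that is lost in mucopolysaccharidosis IIIA. At 24 hours post fertilization (hpf) whole embryos were taken, at 5 days post fertilization (dpf) larval heads, and at 2, 3 and 18 months dissected brains. At 2 months there were also sgsh and wild-type fish stably carrying an sgsh transgene with mTagBFP2 under the ubiquitous ubb promoter. Each of the 12 groups had 3 libraries, and each library pooled 50 embryos or heads, or 3 brains. Nothing states that the pools came from separate clutches or tanks, so p-values measure the spread between these pools. In whole embryos and heads, fewer muscle cells and less muscle RNA per cell cannot be told apart.

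In a sarcomere, actin thin filaments slide along myosin thick filaments. Calcium binds troponin C, and the troponin complex with troponin I and troponin T then moves tropomyosin off the myosin-binding sites of actin. Alpha-actinin, myozenin and Ldb3 sit in the Z-disc, where thin filaments are anchored, myomesin cross-links thick filaments at the M-line, and titin spans from Z-disc to M-line. Fast and slow fibres use different paralogs of most of these proteins, as do embryonic, adult and cardiac muscle, and some tropomyosins and related proteins also serve the cytoskeleton of cells that are not muscle.

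The total count per library was 24761341 to 26038889 at 24 hpf, 17061799 to 17303538 at 5 dpf, 16200025 to 16594654 at 2 months, 21340728 to 24678514 at 3 months and 22177654 to 22511711 at 18 months. Counts of sgsh itself were 126 to 141 in sgsh heads against 230 to 278 in wild-type heads, and in brains without the transgene the sgsh libraries (45 to 93 over the 3 ages) were below the wild-type libraries of their age (92 to 154). At 24 hpf the ranges overlapped, 167 to 206 in sgsh embryos and 181 to 223 in wild-type embryos, so the gene does not check the labels of that stage. Transgenic brains had 1834 to 2755 (sgsh) and 2496 to 3585 (wild type). Levels are given as CPM, counts scaled to a library total of 1000000 after TMM normalization within a stage. The libraries of 24 hpf, 3 months and 18 months were counted together and those of 5 dpf and 2 months were counted with other settings, so levels of the 2 sets are only placed side by side. A call below means an adjusted p under 0.05 in the quasi-likelihood test of edgeR, with Benjamini-Hochberg adjustment over all genes tested.

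Sarcomere genes were abundant in embryos and heads and scarce in brains. The 60 genes summed to 26621 to 27479 CPM in sgsh embryos and 21527 to 23366 CPM in wild-type embryos at 24 hpf, and to 15575 to 16343 CPM in sgsh heads and 16093 to 17443 CPM in wild-type heads at 5 dpf. They took 2.63% to 2.75% of all counts in sgsh embryos and 2.17% to 2.32% in wild-type embryos. In brains without the transgene the sum was 470 to 565 CPM in sgsh and 470 to 575 CPM in wild type at 2 months, 463 to 480 CPM in sgsh and 449 to 525 CPM in wild type at 3 months, and 446 to 504 CPM in sgsh and 464 to 506 CPM in wild type at 18 months. Tropomyosins and nebl made up most of the sum in wild-type brains of 2 and 3 months. At 2 months, where that sum averaged 505 CPM, tpm3 was at 132, tpm1 at 112, tpm2 at 55.2, nebl at 43.4 and tpm4a at 22.0 CPM. At 3 months it averaged 478 CPM, with tpm1 at 109, tpm3 at 98.5, nebl at 78.2, tpm2 at 61.8 and tpm4a at 22.3 CPM. Brains with the transgene had the widest spread, with 877, 502 and 1851 CPM in sgsh and 755, 1624 and 473 CPM in wild type. All 60 genes had a mean of at least 1 CPM in the heads of either genotype, 50 had one in the embryos of either genotype, and 30 to 39 had one in a group of brains.

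**Figure D1:**
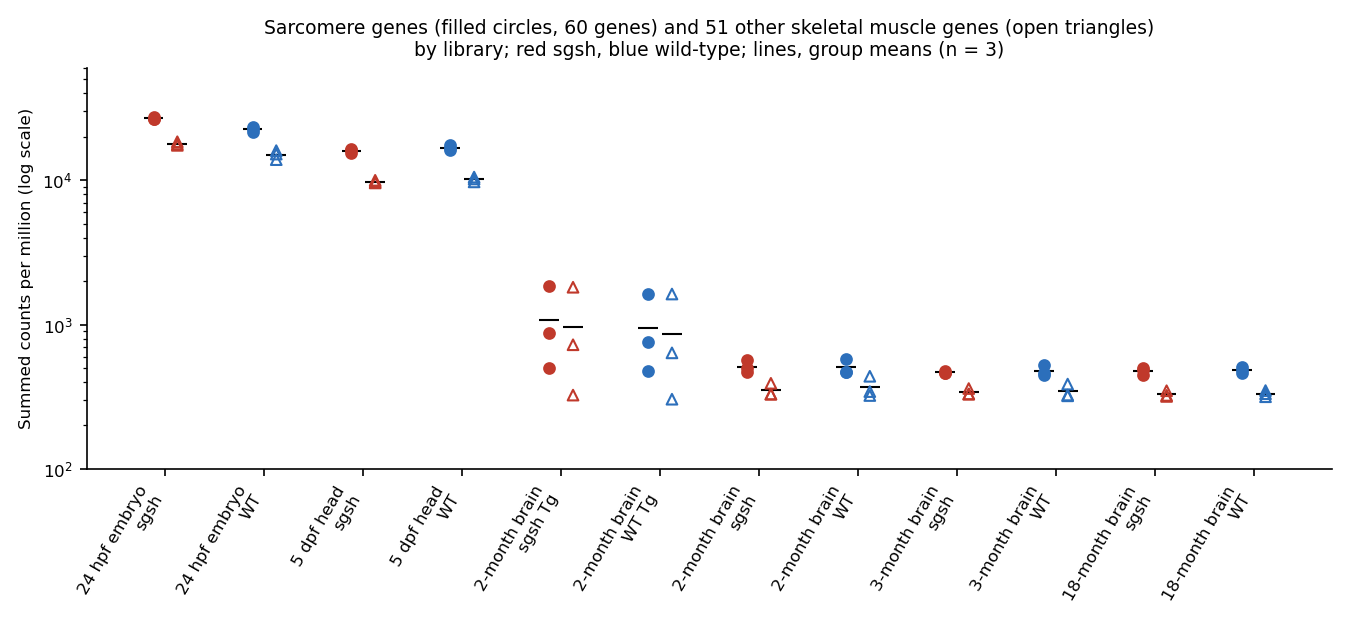
Summed level of the 60 sarcomere genes (filled circles) and of 51 other skeletal muscle genes (open triangles) in each library, in CPM on a log axis, with sgsh in red, wild type in blue and group means as lines (n = 3). Embryos and heads lie between 15575 and 27479 CPM for the sarcomere genes, the brains without the transgene lie between 446 and 575 CPM, and brains with the transgene reach 1851 CPM. Tropomyosins and nebl make up most of the sarcomere gene sum in wild-type brains of 2 and 3 months without the transgene.

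Per kilobase of gene model, the level was set by a handful of genes of each structure. At 24 hpf the thin filament was led by actc1b, tnnc2.2 (fast troponin C) and acta1b, at 3129, 848 and 850 CPM per kilobase in sgsh embryos and 2520, 689 and 628 in wild-type embryos. The thick filament was led by mylpfa, myhz1.1 and mylpfb, the Z-disc by actn3a, actn3b and ldb3b, and the M-line by myom2a, myom1a and MYOM1. Of these, actn3a was at 138 in sgsh and 116 in wild-type embryos, myom2a at 47.4 and 36.1, and the TTN genes at 13.0 and 11.3 (ENSDARG00000028213) and 11.8 and 10.7 (ENSDARG00000000563). At 5 dpf the same genes led, except that tnnt3b replaced acta1b and myhz2 replaced mylpfb. In 3-month brains nebl was the most abundant member, at 32.0 CPM per kilobase in sgsh and 32.8 in wild type, followed by tpm3 at 14.9 and 14.2 and tpm2 at 12.6 and 12.6. In brains the thick filament was led by mylpfa, mylpfb, mybpc2b and mybpc2a. The Z-disc was led by myoz2b, actn2b and ldb3a at 3 and 18 months, and by myoz2b, actn3a and myoz1a over the 4 groups of 2 months. That 2-month order takes in transgenic libraries that were high in muscle genes. In wild-type 2-month brains without the transgene actn2b averaged 3.75 CPM, actn3a 2.32 CPM and myoz1a 0.285 CPM, and actn2b was above both per kilobase as well. The Z-disc genes other than myoz2b were at 1.26 CPM per kilobase or less in every group of brains without the transgene.

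Which paralog supplied each protein differed between stages. The shares below are of the summed level of a protein family per kilobase of gene model, as means of 3 libraries. Among sarcomeric actins, actc1b, a skeletal alpha-actin of zebrafish larvae despite its symbol, made up 71.2% of the family in sgsh embryos and 69.5% in wild-type embryos, and 94.3% in sgsh heads and 92.9% in wild-type heads. The cardiac-type actc1a made up 3.38% in sgsh embryos and 6.52% in wild-type embryos.

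Troponin T, the subunit that ties troponin to tropomyosin, was mostly tnnt3a at 24 hpf, with 52.3% of the family in sgsh embryos and 46.3% in wild-type embryos. Its second source was tnnt2c, with 23.6% in sgsh embryos and 35.3% in wild-type embryos. By 5 dpf tnnt3b held 69.6% in sgsh heads and 69.1% in wild-type heads, and tnnt2c held 0.38% and 0.45%. In brains the slow-type tnnt1 held 28.0% to 51.6% of the group means, although it held 0.03% in sgsh embryos and 0.02% in wild-type embryos. Troponin I, the inhibitory subunit, also changed its source. At 24 hpf it came from tnni2b.1 (48.7% in sgsh and 56.7% in wild-type embryos) and tnni2a.4 (43.5% in sgsh and 35.3% in wild-type embryos). At 5 dpf tnni2a.1 held 37.2% in sgsh heads and 35.4% in wild-type heads, whereas its highest count in a 24 hpf library was 1. In brains tnni1b held 14.5% to 68.3% of the group means.

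Of the myosin heavy chains, the motors of the thick filament, fast myhz1.1 held 61.1% in sgsh embryos and 58.9% in wild-type embryos. The slow chain smyhc1 held 21.5% and 26.5% there, and fast myhz2 held 7.79% and 3.95%. At 5 dpf myhz1.1, myhz2 and myhz1.2 held 42.1%, 29.6% and 20.9% in sgsh heads and 41.6%, 30.9% and 19.9% in wild-type heads, and smyhc1 held 3.71% and 3.79%. Tropomyosin was led by tpm3 at 24 hpf (45.4% in sgsh and 46.3% in wild-type embryos), with tpm1 at 1.43% and 1.37%. At 5 dpf tpm2 led in both genotypes, followed by tpm3. Behind them tpm1 held 20.6% in sgsh heads and 20.1% in wild-type heads. In embryos and in heads, sgsh and wild type had the same leading paralog in each of these families. Neighbouring copies on 1 chromosome (myhz2, myhz1.2 and myhz1.1 on 5, the 3 smyhc genes on 24, the 4 tnni2a genes on 25, tnni2b.1 and tnni2b.2 on 7, TNNC2 and tnnc2.2 on 23) are alike in sequence, and how their shared reads were divided is not given in the sources used here, so single values of these genes are uncertain.

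**Figure D2:**
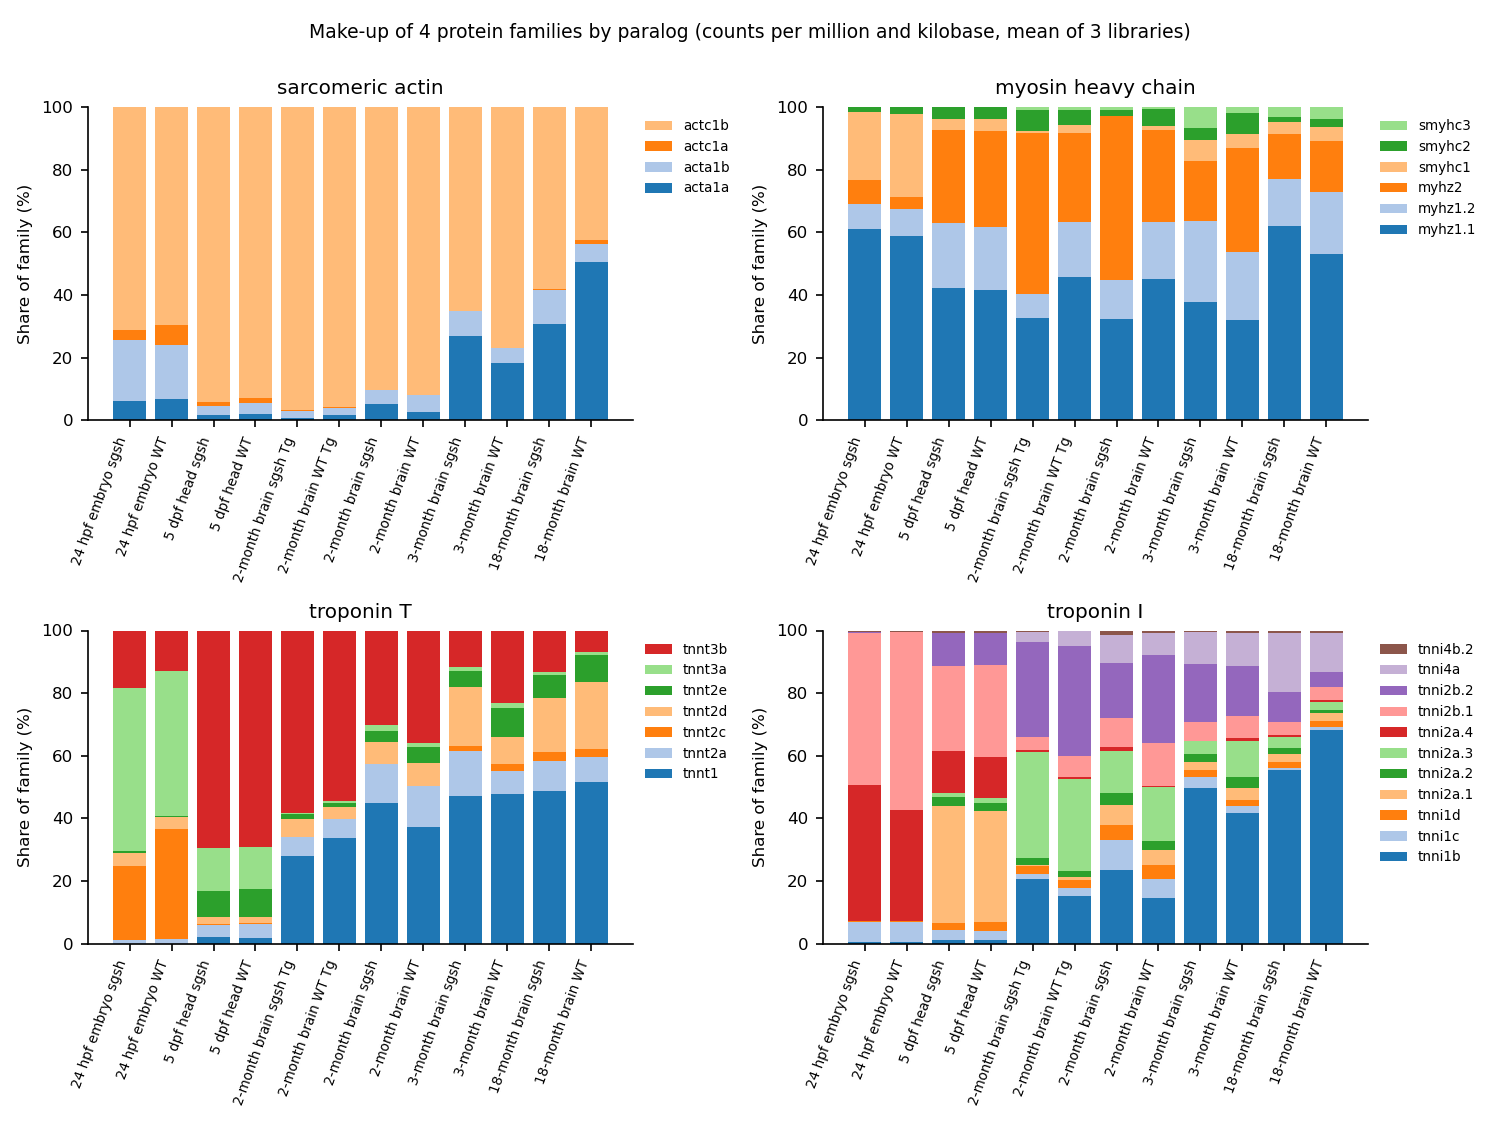
Make-up of 4 protein families in the 12 groups, as the mean share of each paralog in the family's summed level per kilobase (3 libraries a group, sgsh left of wild type). The troponin T bars show tnnt2c at 23.6% in sgsh and 35.3% in wild-type embryos, and at 0.38% in sgsh and 0.45% in wild-type heads, and the brain bars show tnnt1 and tnni1b as large shares of small totals.

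Against wild-type brains of 3 months, wild-type embryos of 24 hpf had 48 of 57 tested members higher and 6 lower, where 90.8% of all genes tested were called (45.8% higher and 45% lower). Against wild-type brains of 2 months, wild-type heads of 5 dpf had 59 of 60 higher and 1 lower, where 79.4% of all genes tested were called (41.2% higher and 38.2% lower). The members' median log2 difference was 7.31 between embryo and brain and 6.32 between head and brain. Skeletal muscle genes outside the rule had the same order, with 48 of 51 higher and 2 lower in heads than in brains. The slow myosin smyhc1 averaged 174 CPM in wild-type heads and 0.0814 CPM in wild-type 2-month brains, and actc1b averaged 4294 CPM and 35.3 CPM.

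A few members kept a sizeable share of their head level in the brain. The tropomyosins, which also stabilize actin filaments outside muscle, were at 16.8% (tpm2), 30.6% (tpm1), 32.4% (tpm4a) and 35.3% (tpm3) of their head level in wild-type 2-month brains, whereas tpm4b was at 7.36%. The slow troponin T tnnt1 was at 31.4% and mybpc2a, a fast-type myosin-binding protein C, at 32.0%. Others were tnni3k at 65.0%, myoz2b at 30.5%, tnni4a at 23.4% and tnni2a.3 at 16.1%, each on at most 2.48 CPM in those brains. The nebulette gene nebl ran the other way. It averaged 3.01 CPM in wild-type embryos, 4.11 CPM in wild-type heads, 43.4 CPM in wild-type 2-month brains and 78.2 CPM in wild-type 3-month brains, and it was the 1 member lower in heads than in brains (log2 difference -3.29). Besides nebl, the embryo was lower than the brain in mybpc2a, tnnt1, tnni4a, tnni2b.2 and tpm1, by log2 differences of -4.66 to -2.14.

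At 24 hpf many sarcomere genes were higher in sgsh embryos, most by less than 1 on the log2 scale. Of the 55 members tested, 28 were called higher and 4 lower, 58.2% in all, where 21.7% of all genes tested were called (10.8% higher and 10.9% lower). The members' median log2 fold change was 0.22, and that of all genes tested was 0.0012. All 3 sgsh libraries were above all 3 wild-type libraries for 28 members and below them for 7, and 36.3% of all genes tested had groups that did not overlap (18.3% above and 18% below). The other 5 members, tnnt1, tnni4a, tnni2a.1, tnni2a.2 and tnni2a.3, did not pass the filter on low counts and had at most 13 counts in a library. By structure, 13 of 29 thin filament genes rose and 3 fell, 7 of 12 thick filament genes rose, 6 of 9 Z-disc genes rose and 1 fell, and 2 of 3 M-line genes rose. Neither TTN gene was called, with edgeR adjusted p-values of 0.053 (ENSDARG00000028213) and 0.30 (ENSDARG00000000563).

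Among the thick filament genes, the fast myosin heavy chain myhz2 had 405, 461 and 461 CPM in sgsh embryos, against 184, 186 and 174 CPM in wild-type embryos. That is a log2 fold change of 1.28 (SE 0.044, adjusted p = 1.51e-15). The most abundant heavy chain, myhz1.1, had 3415, 3432 and 3592 CPM in sgsh embryos, against 2614, 2826 and 2731 CPM in wild-type embryos. Its log2 fold change was 0.35, and that of myhz1.2 was 0.22. Of the light chains that regulate fast myosin, mylpfa had 2326, 2423 and 2456 CPM in sgsh embryos, against 1774, 1898 and 2003 CPM in wild-type embryos, and mylpfb had a log2 fold change of 0.50. The remaining thick filament genes that rose were mybpc2b and mybpc3, fast-type and cardiac-type myosin-binding protein C, by 0.49 and 0.38 on the log2 scale. The slow heavy chains did not pass the test. For smyhc1 the values were 1277, 1276 and 1196 CPM in sgsh embryos and 1253, 1250 and 1251 CPM in wild-type embryos, and smyhc2 and smyhc3 had overlapping groups as well.

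In the thin filament, actc1b, the most abundant member, had 5259, 5656 and 5726 CPM in sgsh embryos, against 3959, 4515 and 4931 CPM in wild-type embryos (log2 fold change 0.31). The skeletal actin acta1b had 1255, 1355 and 1390 CPM in sgsh embryos, against 930, 985 and 1041 CPM in wild-type embryos (0.44). Fast troponin T rose through both of its genes, tnnt3b by 0.61 and tnnt3a by 0.31 on the log2 scale. The fast troponin I tnni2a.4 rose by 0.46, whereas its partner of like level, tnni2b.1, was not called, with 464 CPM on average in sgsh embryos and 483 CPM in wild-type embryos. Another fast troponin I, tnni2b.2, had 16, 20 and 24 counts in sgsh embryos, against 0, 1 and 8 in wild-type embryos. It passed the filter on low counts only through the sgsh embryos, and its fitted log2 fold change of 2.71 was between 2.14 (without wild-type replicate 1) and 5.03 (without wild-type replicate 3), so its call is no more than a description. NEB, the nebulin gene whose protein runs along the thin filament, rose by 0.26, and tnnc2.2, a fast troponin C, by 0.30. Further thin filament genes that rose were tnnt2e (0.55), tnnt2d (0.38), tnni4b.2 (0.28) and acta1a (0.17), and tnni4b.2 lost its call without sgsh replicate 3 (adjusted p = 0.0533). TNNC2, the neighbour of tnnc2.2, was not called at a log2 fold change of 0.52 (adjusted p = 0.212). None of the 5 tropomyosin genes was called. The most abundant of them, tpm3, averaged 594 CPM in sgsh embryos and 613 CPM in wild-type embryos.

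The 4 members called lower were 3 thin filament genes and 1 Z-disc gene. nebl had 14, 8 and 6 counts in sgsh embryos, against 80, 67 and 87 in wild-type embryos, a fitted log2 fold change of -3.02. At these counts it passed the filter only through the wild-type embryos, so its call is no more than a description. The troponin T gene tnnt2c had 495, 493 and 450 CPM in sgsh embryos, against 626, 659 and 679 CPM in wild-type embryos (log2 fold change -0.45, SE 0.040, adjusted p = 2.31e-08). The cardiac-type actin actc1a had 160, 243 and 317 CPM in sgsh embryos, against 388, 363 and 377 CPM in wild-type embryos (log2 fold change -0.65, SE 0.12, adjusted p = 0.000488). Its sgsh libraries differed among themselves by more than the wild-type ones, and DESeq2's Wald test did not call it (adjusted p = 0.101). actn2b, an alpha-actinin, had a log2 fold change of -0.22 and lost its call without sgsh replicate 2, wild-type replicate 1 or wild-type replicate 2 and with DESeq2, with adjusted p-values of at most 0.0795.

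Z-disc genes that rose were myoz1a (0.63), ldb3b (0.43), myoz2a (0.42), myoz1b (0.29), actn3b (0.26) and actn3a (0.25), with log2 fold changes in brackets. At the M-line myom2a and myom1a rose by 0.39 and 0.25. Sorted by the fibre type that uses each paralog, a grouping made after the values had been seen, 15 of 18 tested fast-fibre genes rose and none fell, and 2 of 11 slow-fibre genes rose, the troponin C tnnc1b (0.28) and myoz2a. Of the other 26 tested members, 11 rose and 4 fell. A call for a fast gene and none for a slow gene does not show that the classes differ, and that difference was not tested.

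Muscle genes outside the rule moved in the same stage. In a list of skeletal muscle genes (calcium handling, metabolism and membrane proteins of muscle), 25 of 48 tested rose and 4 fell in sgsh embryos. Those with the highest fold were atp2a1l, a calcium pump gene (log2 fold change 2.40), tcap, which encodes the titin cap (1.14), and pvalb1, a parvalbumin (0.93), while musk, the receptor kinase of the neuromuscular junction, fell (-0.46). Others that rose were the calsequestrins casq1a and casq1b (0.70 and 0.47), the calcium channel subunit cacna1sa (0.69), pvalb2, pvalb3 and pvalb4 (0.48, 0.64 and 0.36), cavin4a and cavin4b (0.60 and 0.16), smyd1a, a myosin-interacting methyltransferase (0.52), pygma (0.48), the creatine kinases ckma and ckmb (0.36 and 0.22), pgam2 (0.39), eno3 (0.21), atp2a1 (0.33), the light chains mylz3 and myl1 (0.29 and 0.22), hhatla (0.32), jph1b and jph2 (0.23 and 0.15), xirp1 (0.22) and tmod4 (0.21). The acetylcholine receptor subunit chrng (-0.41), trim63a (-0.24) and klhl41b (-0.24) fell beside musk. This list summed to 17459 to 18490 CPM in sgsh embryos and 13898 to 16044 CPM in wild-type embryos. Of 14 myogenic transcription factors, pax7a and pax7b rose (0.43 and 0.27) and tbx6, myog and mef2d fell (-0.86, -0.50 and -0.19), and their sum was 642 to 699 CPM in sgsh embryos and 687 to 720 CPM in wild-type embryos. Lists of other tissues also had calls at this stage. Of 10 neuronal genes 6 rose, of 5 tested cartilage and bone genes 3 rose, of 7 eye genes 3 rose, of 9 heart genes nppa and casq2 rose (1.13 and 0.20), of 4 smooth muscle and mural genes acta2 and pdgfrb rose (0.85 and 0.38), and of 9 skin genes 2 rose and 4 fell. Cartilage and bone genes summed to 1398 to 1569 CPM in sgsh embryos and 980 to 1237 CPM in wild-type embryos, with bglap at 0 in both. The part of embryo age or tissue makeup in the muscle result was not tested.

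**Figure D3:**
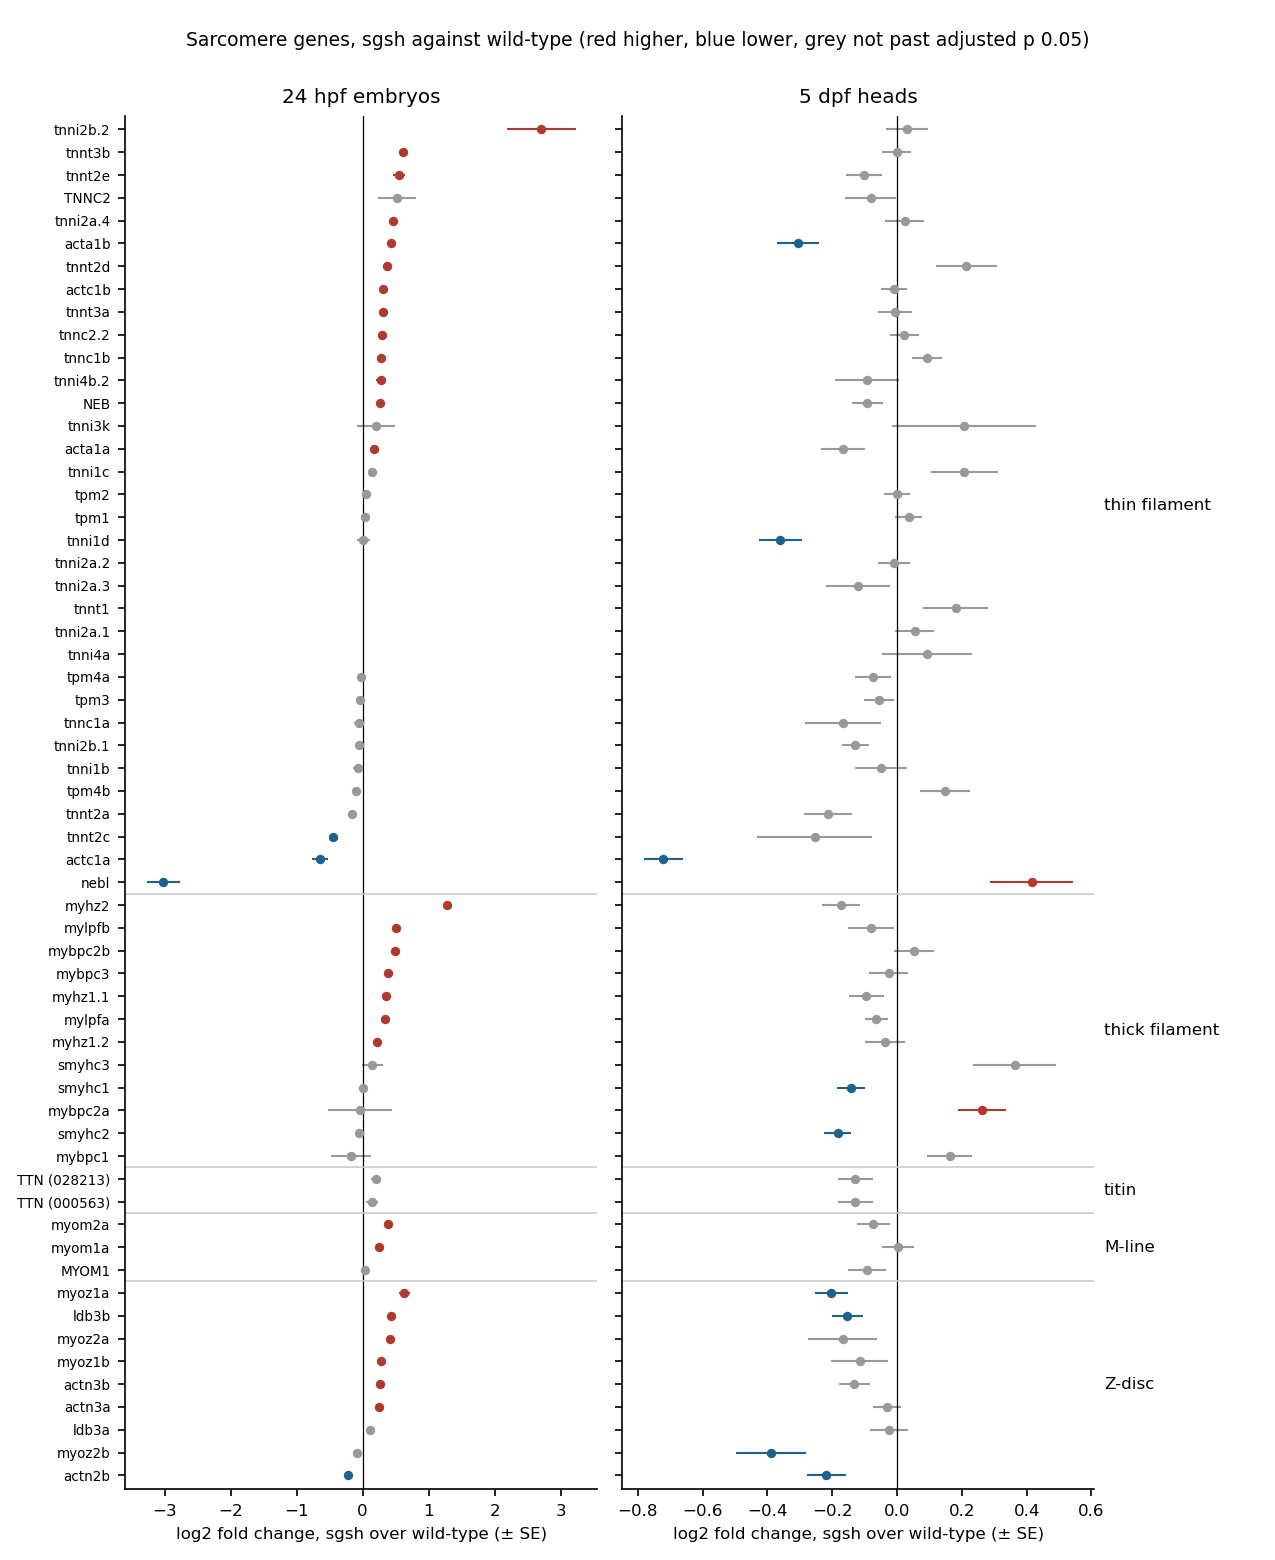
Log2 fold change of each member in sgsh against wild type (± SE) at 24 hpf and at 5 dpf, ordered by structural class, with members past an adjusted p of 0.05 in red (higher) or blue (lower). The horizontal scales of the 2 panels differ. At 24 hpf 28 members are red and 4 blue, and at 5 dpf 2 are red and 9 blue, with no fold change beyond -0.72.

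In heads at 5 dpf the differences were smaller. Of 60 members, 2 were called higher and 9 lower in sgsh heads, 18.3%, which is close to the 14.4% of all genes tested (5.71% higher and 8.67% lower). The median log2 fold change was -0.07 over the members and 0.00087 over all genes tested. Only 4 of the 11 were called under every alternative, actc1a, acta1b, smyhc2 and tnni1d. The count was 6, 5 and 5 without sgsh replicate 1, 2 or 3, and 7, 7 and 9 without wild-type replicate 1, 2 or 3. No share of all genes is given for these fits, so their counts are only a description.

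The most changed member was actc1a, with 39.5, 42.2 and 41.9 CPM in sgsh heads, against 74.8, 64.6 and 64.6 CPM in wild-type heads (log2 fold change -0.72, SE 0.060, adjusted p = 8.03e-06). It was lower in sgsh at both 24 hpf and 5 dpf, as was actn2b, with 27.1, 29.0 and 28.5 CPM in sgsh heads, against 35.2, 31.8 and 31.4 CPM in wild-type heads (-0.22). The skeletal actin acta1b had 112, 124 and 111 CPM in sgsh heads, against 160, 132 and 137 CPM in wild-type heads (log2 fold change -0.30, adjusted p = 0.0064), and actc1b, at 4048 CPM or more in every library, was not called. The slow troponin I tnni1d had 21.7, 19.2 and 19.9 CPM in sgsh heads, against 27.2, 26.1 and 24.8 CPM in wild-type heads (-0.36). Of the slow heavy chains, smyhc2 had a log2 fold change of -0.18 and smyhc1 of -0.14, and smyhc1 lost its call under 9 of 12 alternatives. The third, smyhc3, had 117, 104 and 105 counts in sgsh heads, against 85, 73 and 96 in wild-type heads, and was not called (0.36, adjusted p = 0.080).

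Z-disc genes made up 4 of the 9 lower calls, myoz2b (-0.39), actn2b, myoz1a (-0.20) and ldb3b (-0.15). Of 12 alternatives, ldb3b lost its call under 8 and the other 3 under 5 each. The 2 members called higher were nebl, with 100, 92 and 90 counts in sgsh heads, against 74, 76 and 62 in wild-type heads (log2 fold change 0.42), and mybpc2a (0.26). Among the 10 largest folds, tnnt2c (-0.25) and tnnt2d (0.21) were not called either. The call of nebl was lost without any 1 of the 6 libraries and with DESeq2 (adjusted p of at most 0.223). Of 51 skeletal muscle genes outside the rule, 9 were lower and none higher, among them pygma, muscle glycogen phosphorylase (-0.44), tcap (-0.47), lmod3, a leiomodin of the thin filament (-0.39), and trim63a, a ubiquitin ligase of muscle (-0.36). The others were trim63b (-0.34), myl1 (-0.25), pgam2 (-0.24), desma (-0.23) and jph2 (-0.21), and of the myogenic factors mef2d fell (-0.14). In the same heads 3 of 9 skin genes were higher and 2 lower, and 2 of 7 cartilage and bone genes were higher, with sums of 4133 to 4474 CPM in sgsh heads and 3555 to 4056 CPM in wild-type heads. The part of these other tissues in the muscle values was not tested.

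Between sgsh and wild-type brains without the transgene, few members differed beyond the spread between pools. At 3 months none of the 39 tested was called, where 2.89% of all genes tested were. Of the 39 members, 10 had an unadjusted p under 0.05. The share of all genes at that threshold is not given here, so this count is only a description. DESeq2 called 2. At 18 months 1 of 39 was called, higher in sgsh, where 6.72% of all genes tested were called (4.52% higher and 2.2% lower). At 2 months 1 of 47 was called, higher in sgsh, where 0.841% were called (0.354% higher and 0.486% lower). The 3-month values with the smallest adjusted p were those of TTN ENSDARG00000000563, with 3.01, 2.16 and 1.62 CPM in sgsh brains, against 4.87, 4.1 and 3.66 CPM in wild-type brains (log2 fold change -0.88, edgeR adjusted p = 0.062). Some skeletal muscle genes were high in 1 wild-type library of 3 months and were not called. mylpfa had 2.97, 2.95 and 4.48 CPM in sgsh brains, against 14.9, 3.35 and 3.92 CPM in wild-type brains, and tnnt3b and actc1b were also highest in wild-type replicate 1. The 10 largest log2 fold changes at 3 months, none of them called, were those of myhz2 (-1.45), mylpfa (-1.10), tnnt2d (1.09), tnnt3b (-1.06), tnnt2e (-0.94), ldb3a (0.92), actc1b (-0.91), tnnt2a (0.90), this TTN gene and actn3b (-0.67). Outside the rule, the smooth muscle myosin myh11a was called (0.38).

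At 18 months the called member was tpm3, with 90.8, 93.0 and 100 CPM in sgsh brains, against 77.5, 75.8 and 77.5 CPM in wild-type brains (log2 fold change 0.30, SE 0.059, adjusted p = 0.0276). Without sgsh replicate 1 it stayed called, and without any 1 of the other 5 libraries it was not, with adjusted p-values of at most 0.12. At this age 1 sgsh library was high in mylpfa and actc1b, which were not called either. mylpfa had 0.628, 1.1 and 7.83 CPM in sgsh brains, against 1.1, 0.923 and 0.529 CPM in wild-type brains, and actc1b had 1.93, 3.49 and 11.1 CPM in sgsh brains, against 1.90, 2.29 and 1.19 CPM in wild-type brains. Of the 39 members, 17 were highest in sgsh replicate 3. The share of all genes highest in that library is not given here, so this count is only a description. The 10 largest log2 fold changes, none of them called, were those of mylpfa (1.90), actc1b (1.61), tnni2b.2 (1.46), myoz1b (1.28), tnnt3b (1.08), myhz1.1 (0.90), myom2a (0.87), mybpc2b (-0.87), myoz2b (-0.73) and TTN ENSDARG00000000563 (-0.68). Outside the rule, eno3 (0.90) and pdgfrb (0.69) were called higher and pax7b (-0.52) lower, calls that were not checked with single libraries left out.

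At 2 months the called member was mybpc2b, the fast-type myosin-binding protein C, with 20.5, 24.6 and 19.7 CPM in sgsh brains, against 0.844, 4.90 and 6.31 CPM in wild-type brains (log2 fold change 2.43, SE 0.47, adjusted p = 0.0268). Wild-type replicate 1 had 14 counts and the other wild-type libraries had 80 and 103. The call was lost without sgsh replicate 1 or 2 or wild-type replicate 1 or 2, with adjusted p-values of at most 0.0792. At 3 months mybpc2b had 13.5, 8.51 and 16.9 CPM in sgsh brains and 16.8, 10.5 and 9.17 CPM in wild-type brains. At 18 months it had 8.65, 10.2 and 9.97 CPM in sgsh brains and 27.1, 9.76 and 15.7 CPM in wild-type brains, so the groups overlapped at both later ages. The other members with the largest log2 fold changes at 2 months were smyhc2 (-2.00), myhz2 (1.68), tnni2b.2 (-1.37), tnni2a.3 (-1.21), tnni2b.1 (-0.99), tnnc1b (-0.92), mybpc1 (0.85), myhz1.1 (-0.79) and acta1a (0.79), with adjusted p-values of 0.364 or more. smyhc2 had 0, 2 and 2 counts in sgsh brains and 1, 4 and 12 in wild-type brains, and passed the filter only through transgenic libraries. For myhz2 the counts were 26, 14 and 233 in sgsh brains and 11, 22 and 52 in wild-type brains, so its fold rests on 1 library. Between sgsh and wild-type brains with the transgene, none of 47 members was called, where 0.0304% of all genes tested were. At an unadjusted p under 0.05 there were 3 members, with no share of all genes given at that threshold. The largest log2 fold changes there were those of myhz2 (1.77), TNNC2 (0.85), tnni2a.3 (0.66), ldb3b (0.64), MYOM1 (0.56), tnnt2d (0.52), acta1b (0.51), tnni1b (0.51), tnni3k (-0.42) and mybpc2a (0.41).

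Within the 2-month brains, 2 libraries stood apart in muscle genes, sgsh with the transgene replicate 3 and wild type with the transgene replicate 2. Both were above all of the other 10 libraries for 23 of the 47 members tested, for 23 of 42 skeletal muscle genes outside the rule, and for 2.64% of all genes tested. Replicate 1 of either transgenic group came next for actc1b and mylpfa, and replicate 2 of the sgsh and replicate 3 of the wild-type transgenic brains were as low as brains without the transgene. For actc1b the values were 149, 23.7 and 565 CPM in sgsh with the transgene, 121, 424 and 13.0 CPM in wild type with the transgene, 26.4, 18.6 and 41.8 CPM in sgsh, and 21.2, 29.4 and 55.4 CPM in wild type. The fast light chain mylpfa had 91.9, 6.36 and 316 CPM in sgsh with the transgene, 58.7, 301 and 3.03 CPM in wild type with the transgene, 6.73, 4.98 and 14.5 CPM in sgsh, and 5.19, 5.82 and 32.7 CPM in wild type. The highest of the 12 libraries was 104-fold above the lowest for mylpfa and 43.4-fold for actc1b.

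The 2 libraries were not high in every member. Some paralogs of the embryo had few counts in them, although for smyhc1, actc1a and smyhc2 these libraries were still among the highest of the 12. In these libraries smyhc1 was at 5 and 4 counts, against 0 to 3 in the other 10, and actc1a at 10 and 9, against 0 to 4 in 9 others and 18 in sgsh with the transgene replicate 1. The slow chain smyhc2 was at 24 and 37, against 0 to 12 in 9 others and 25 in that same replicate 1, and tnnt2c was at 0 in both. Tropomyosin tpm3 was at 115 and 121 CPM in them and nebl at 57.9 and 55.2 CPM, both within the range of the other 2-month libraries. Of the 37 members with at least 4 counts in all 12 libraries, 13 varied by 10-fold or more and 9 by less than 2-fold. In the 3-month libraries, 21 of 39 members varied by less than 2-fold and none by 10-fold or more. The 3-month range covers fewer libraries and no transgenic group, so the counts of the 2 ages cannot be set against each other. The share of all genes with such spreads is not given here, so these counts are only a description. Cartilage and bone genes summed to 16.2 to 85.3 CPM in sgsh with the transgene, 18.3 to 46.1 CPM in wild type with the transgene, 28.4 to 50.7 CPM in sgsh and 27.7 to 43.5 CPM in wild type. The part of muscle carried over at dissection in these values was not tested.

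**Figure D4:**
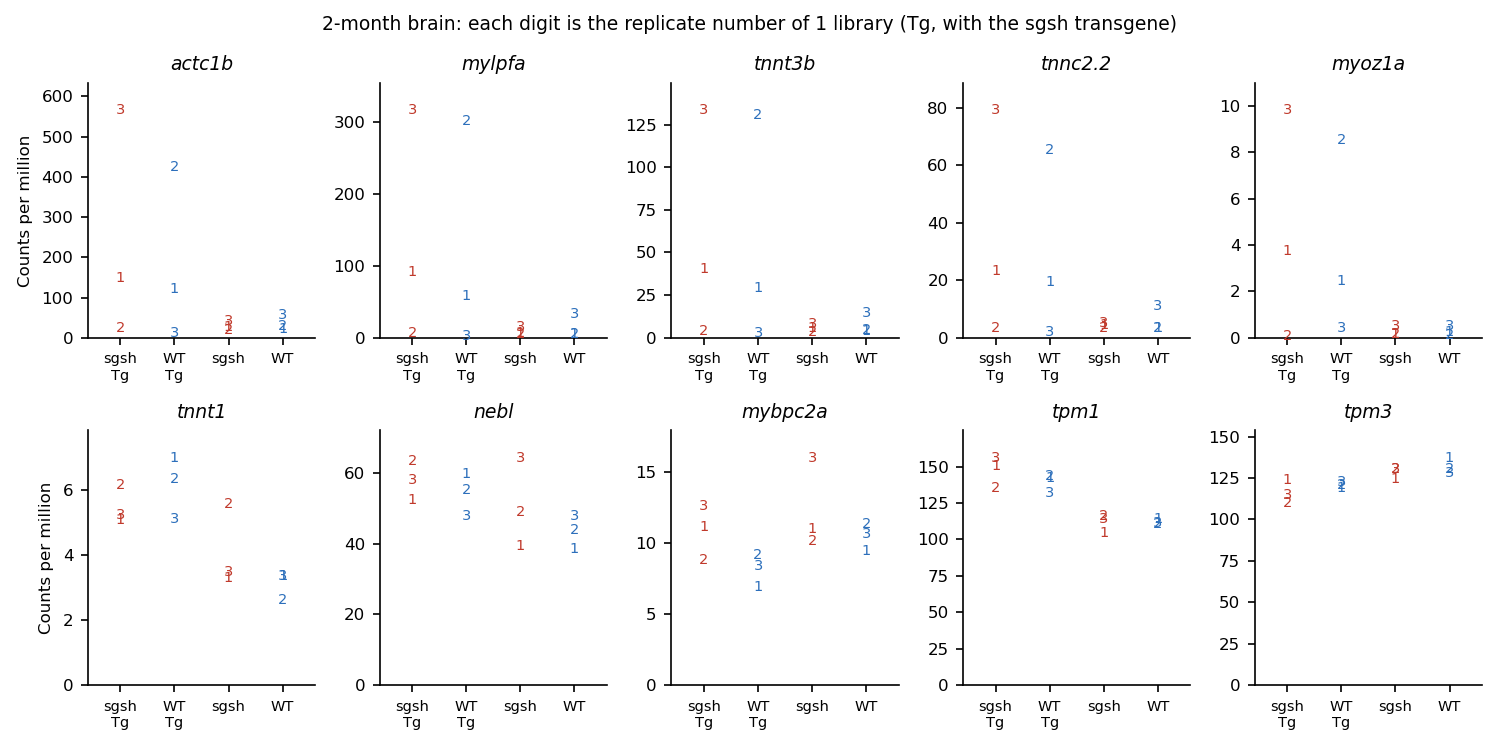
Level of 10 members in the 12 libraries of 2-month brain, in CPM, each digit giving the replicate number of its library, with transgenic groups left of those without the transgene. In the upper row, chosen after the values had been seen, sgsh Tg replicate 3 and WT Tg replicate 2 lie far above the rest (565 and 424 CPM for actc1b). In the lower row they lie among the others, except that for tpm1 and mybpc2a each is the highest library of its own group, by margins small beside those of the upper row.

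Where the transgene was compared with its absence, the result of single members depended on these libraries. In sgsh brains the transgene came with 7 members higher and 2 lower of 47, where 18.4% of all genes tested were called (8.85% higher and 9.51% lower). In wild-type brains it came with 4 higher and 1 lower, where 15.2% were called (6.79% higher and 8.45% lower). These comparisons share no library with each other, but each shares its libraries with the genotype comparisons above. With both high libraries left out the counts were 4 and 3. Without 1 library at a time, the count in sgsh was 4, 5 and 8 without sgsh replicates 1, 2 and 3, and 5, 15 and 4 without replicates 1, 2 and 3 with the transgene. In wild type it was 3, 3 and 4 without wild-type replicates 1, 2 and 3, and 3, 3 and 7 without replicates 1, 2 and 3 with the transgene. For the fits with libraries left out no share of all genes is given, so their counts are only a description.

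Few calls lasted under every alternative. In sgsh brains these were tpm1 and tnni1b. tpm1 had 150, 135 and 156 CPM with the transgene, against 104, 116 and 114 CPM without it (log2 fold change 0.40, SE 0.061, adjusted p = 0.000611). The slow troponin I tnni1b had 2.95, 4.40 and 2.84 CPM with the transgene, against 1.62, 1.46 and 1.89 CPM without it (1.03, SE 0.22, adjusted p = 0.0051). In wild-type brains they were tpm1, tnnt1 and mybpc2b. tpm1 had 142, 144 and 132 CPM with the transgene, against 114, 110 and 111 CPM without it (0.32), and tnnt1 had 7.02, 6.36 and 5.12 CPM, against 3.38, 2.63 and 3.37 CPM (0.98). In both genotypes the highest tpm1 value with the transgene was that of the library high in muscle genes. mybpc2b had 25.5, 41.0 and 16.2 CPM with the transgene, against the 0.844, 4.90 and 6.31 CPM of wild-type brains without it (2.78, adjusted p = 0.0016). The genotype comparison above used the same 3 wild-type libraries.

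The other calls in sgsh brains were acta1a (-1.34), actn2b (-0.90), NEB (1.56), TTN ENSDARG00000000563 (1.77), actn3a (3.34), myoz1a (3.97) and tnni2a.3 (4.63). The last 3 had overlapping groups, for tnni2a.3 with 9.89, 0.367 and 32.5 CPM with the transgene, against 0.180, 0.547 and 0.978 CPM without it. In sgsh brains myoz1a had 61, 1 and 159 counts with the transgene, against 3, 3 and 8 without it. It passed the filter on low counts only through transgenic libraries, so its fitted fold change is only a description. Calls of NEB, TTN, actn3a, myoz1a and tnni2a.3 were lost with both high libraries left out. In wild-type brains tnni1b (0.78) and tpm4b (-0.58) lost their calls under most alternatives, among them the fits without the high libraries. Other lists also had calls beside the transgene. In sgsh brains 8 of 42 skeletal muscle genes outside the rule were higher and 1 lower, 6 of 7 oligodendrocyte genes were higher, and 5 of 7 blood genes were lower and 1 higher. Blood genes summed to 519 to 604 CPM with the transgene and 970 to 1155 CPM without it, and the part of brain makeup in the members' values was not tested. For the transgene effect of 1 genotype against that of the other, none of 47 members was called, where 0.127% of all genes tested were. At an unadjusted p under 0.05 there was 1 member, with no share of all genes given at that threshold.

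With age, sgsh brains of 18 months had 5 of 43 members higher and 1 lower than those of 3 months, where 19.5% of all genes tested were called (9.87% higher and 9.6% lower). Wild-type brains had 5 higher and 7 lower, where 20.8% were called (9.14% higher and 11.7% lower). Of the 5 tropomyosin genes, tpm3, tpm4a and tpm4b were lower with age in wild-type brains, and tpm1 and tpm2 were not called (log2 fold changes 0.10 and 0.02). tpm3 had 77.5, 75.8 and 77.5 CPM at 18 months, against 104, 91.0 and 100 CPM at 3 months (log2 fold change -0.34, adjusted p = 0.00141), and tpm4a had 16.6, 15 and 16.7 CPM, against 22.4, 21.8 and 22.7 CPM (-0.45). tpm4b fell by 0.89 on the log2 scale. In sgsh brains tpm4a had 17.7, 25.6 and 22.4 CPM at 18 months and 24.7, 23.9 and 24.0 CPM at 3 months and was not called. tpm4a lies on chromosome 22, as sgsh does, at a distance of 4.045 Mb, so linked variation cannot be told apart from the deletion for this gene.

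nebl was higher with age in both genotypes. In sgsh brains it had 106, 108 and 93.3 CPM at 18 months, against 67.6, 76.4 and 84.6 CPM at 3 months (0.43, adjusted p = 0.00403). In wild-type brains it had 132, 119 and 117 CPM at 18 months, against 81.5, 76.4 and 76.7 CPM at 3 months (0.67, adjusted p = 0.000177). In wild-type brains tnni1b (0.83), tnnt2d, a troponin T (1.17), myom1a (0.70) and NEB (0.75) also rose. The call of NEB was lost under 7 of 12 alternatives, among them the fits without any 1 of the 18-month wild-type libraries. That of myom1a was lost without 3-month wild-type replicate 3. In sgsh brains myom2a (1.68), myhz1.1 (1.62) and tnni4a (1.05) rose and myoz2b, a Z-disc myozenin, fell (-1.04). The call of myoz2b was lost without 3-month sgsh replicate 1 or 3. The fifth higher call was that of myoz1b, with 10, 14 and 19 counts in sgsh brains at 18 months, against 1, 1 and 2 at 3 months. It passed the filter through the 18-month sgsh brains, so its fitted log2 fold change of 3.34 is only a description.

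mylpfa, actc1b, tnnt3b and myhz2 had the largest age differences in wild type, with log2 fold changes of -3.09, -2.69, -1.91 and -1.50, and 3-month wild-type replicate 1 had the highest value of the 6 wild-type libraries in each of them. Without that library only the call of actc1b among the 4 lasted, and myhz2 was called under 2 of its 11 alternatives. In sgsh brains the call of myhz1.1 was lost without 18-month replicate 3 or any 1 of the 3-month libraries. Called under every alternative that tested them were 7 of the 12 members in wild type and 4 of the 6 in sgsh. These include tnnt2d in wild type and myoz1b in sgsh, which were not tested with a minimum of 10 counts in every library. The call of myoz1b remains a description only. For the age effect of sgsh against that of wild type, none of 43 members was called, where 0.126% of all genes tested were. At an unadjusted p under 0.05 there were 12 members, a description only, with no share of all genes given at that threshold. A member called in 1 genotype and not in the other is therefore not shown to differ between them. Outside the rule, the parvalbumins pvalb1, pvalb2 and pvalb3, calcium buffers of fast fibres, were lower at 18 months in wild-type brains (-3.68, -5.23 and -2.98). Their calls were not checked with single libraries left out, and the part of 3-month wild-type replicate 1 in them was not tested.

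**Figure D5:**
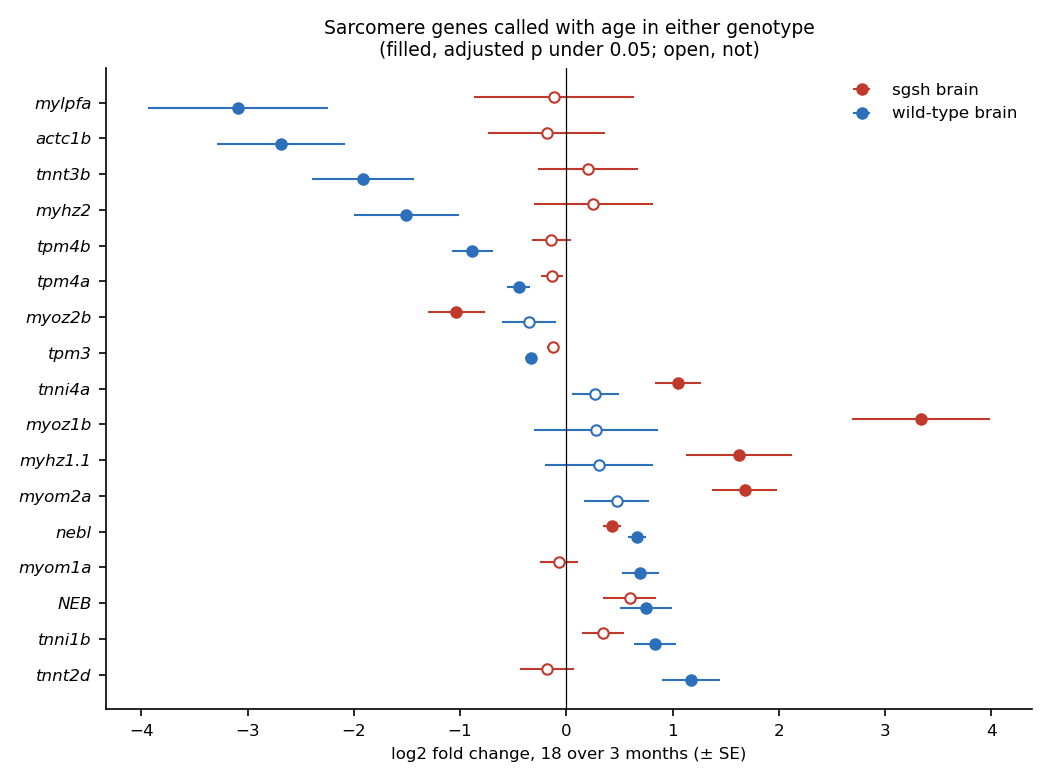
Log2 fold change of 18 over 3 months (± SE) for the 17 members called in either genotype, sgsh in red and wild type in blue, filled where the adjusted p was under 0.05 and open where it was not. nebl is filled in both genotypes (0.43 in sgsh and 0.67 in wild type), and mylpfa has the lowest value, -3.09 in wild type.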

How the data were processed

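RNA was sequenced from pools of embryos, larval heads or adult brains (36 libraries, 12 groups of 3). The deposited values were counts per gene that the authors made from their reads. The libraries of 24 hpf, 3 months and 18 months came in 1 table made with STAR and featureCounts by its title, with strand and filters not given in the sources used here. Those of 5 dpf and 2 months came as 1 file each, and their headers name featureCounts 2.0.1 on read pairs, counted on the reverse strand at mapping qualities from 10 up. The submitters' processing notes also name HISAT2, Bowtie2, RSEM and GRCz11.

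Counts were tested in R 4.3.3 with edgeR 4.0.16 (filterByExpr with a count minimum of 10 and a total minimum of 15, TMM, quasi-likelihood test, Benjamini-Hochberg over all genes tested, threshold 0.05). Each genotype comparison of 24 hpf, 5 dpf, 3 months and 18 months was fitted on its 6 libraries, the 2-month contrasts on 12, and age on the 12 libraries of 3 and 18 months. The count tests were checked on simulated data. Alternatives were DESeq2 1.42.0, RLE and upper-quartile scaling, other filters, a replicate block and leaving out each library. They were followed for the members only, not for single genes of the other lists. No 2 libraries were duplicates. Depth (16200025 to 26038889 counts a library) limits members with few counts.

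Members, gene lists and tests were chosen with earlier results of these data known. Named are all members called in a genotype, transgene or age comparison, the 3 most abundant of each structural class per stage, the 10 members with the largest fold changes in each genotype comparison, and genes of the other muscle lists called in a genotype comparison. Leaving out both high libraries of 2 months, the fibre classes and a TMM scaling without the members at 24 hpf were added after the data were seen.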

Additional observations from a re-analysis of the deposited data

Results flagged for a closer look

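In 4 members the sgsh embryos of 24 hpf and the sgsh heads of 5 dpf differed from wild type in opposite directions, with all 3 sgsh libraries on 1 side of all 3 wild-type libraries at either stage. The log2 fold change of acta1b, a skeletal actin, was 0.44 at 24 hpf and -0.30 at 5 dpf. That of ldb3b, a Z-disc gene, was 0.43 at 24 hpf and -0.15 at 5 dpf, and that of myoz1a, a myozenin, was 0.63 at 24 hpf and -0.20 at 5 dpf. For nebl it was -3.02 at 24 hpf and 0.42 at 5 dpf, on at most 100 counts in a library. At 24 hpf nebl passed the filter only through the wild-type embryos, so its call there is only a description. It was not tested at that stage with a minimum of 10 counts in every library. The 24 hpf calls of acta1b, ldb3b and myoz1a held under every alternative. At 5 dpf that of acta1b did, whereas of 12 alternatives the call was lost under 8 for ldb3b, 5 for myoz1a and 7 for nebl. The difference between the stages was not tested, since whole embryos and heads were counted with different settings.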

How the results depend on the processing

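The 976 values that called members took under the alternatives held their direction throughout, with 833 still past the threshold, 143 no longer past it and 0 reversed. At 24 hpf 407 of 413 were still past it. Shares of all genes called under the alternatives are not given here, so the member counts that follow are only a description. Of the 11 members called at 5 dpf, DESeq2 called 5. At 18 months (1 called) DESeq2 gave 5 and a joint fit with the 3-month libraries 4. At 3 months (0 called) DESeq2 gave 2 and no filter on low counts 1. For the transgene in sgsh brains (9 called) no filter gave 15 and leaving out both high libraries 4, and in wild-type brains (5 called) leaving out both gave 3. A minimum of 10 counts in every library gave 32 for embryo against brain (54 called) and 32 for head against brain (60 called), where fewer members were tested. Without 1 library at a time the counts were 31 to 34 at 24 hpf, 5 to 9 at 5 dpf, 0 to 1 at 2 months, 0 to 0 with the transgene, 0 to 1 at 3 months, 0 to 3 at 18 months, 4 to 15 for the transgene in sgsh, 3 to 7 for it in wild type, 8 to 11 for age in wild type, 5 to 6 for age in sgsh, 54 to 55 for embryo against brain, 59 to 60 for head against brain, and 0 to 0 for both interactions.

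A replicate block gave 20 calls at 5 dpf, 0 at 2 months, 1 at 3 months, 0 at 18 months, 5 for the transgene in sgsh and 3 for it in wild type. These counts are only a description as well, with no share of all genes given for the block. Nothing states that same-numbered libraries share more than their number. Their deviations correlated at 0.036 to 0.135 at 5 dpf, where 5 of 6 libraries correlated best with their own number, and at -0.042 to 0.046 at 24 hpf.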
